A study of Mus musculus with 43 samples.

Results

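The dorsomedial hypothalamus (DMH) of fasted mice was compared with that of fed mice, gene by gene, in 11 of the 41 RNA sequencing libraries analysed here. Of these, 5 came from fasted and 6 from fed mice, chosen by the nucleus and the nutritional state in their labels. All mice were adult males on a C57/BL6 background by their labels, C57BL/6J in the study's methods. They carried a paternal deletion of Snord116 (B6(Cg)-Snord116tm1.1Uta/J). Wild-type mice were not analysed here, and each difference below is one between nutritional states within the deletion genotype. Fed mice ate ad libitum and fasted mice had no food for 24 hours before the brain was collected. Each library came from 1 mouse, is named here by its state and that mouse's number, and was made from tissue cut out of frozen sections by laser. The fasted libraries were Fast-86 from batch 1, Fast-100 and Fast-101 from batch 2, and Fast-305 and Fast-311 from batch 3, where a batch is a round of laser capture and library preparation. The fed libraries were Fed-92 and Fed-111 from batch 1, Fed-125 and Fed-127 from batch 2, and Fed-308 and Fed-313 from batch 3. Where 5 values follow each other they are in the order Fast-86, Fast-100, Fast-101, Fast-305 and Fast-311. The deleted gene itself was not analysed here.

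The DMH is a hypothalamic nucleus that takes part in feeding, body temperature, stress responses and the daily timing of activity around meals. It receives signals from the arcuate nucleus and from circulating hormones such as leptin, and it projects to the paraventricular nucleus and to brainstem-projecting neurons. In a fasted mouse leptin falls, glucocorticoids rise and body temperature drops, and genes that respond to each of these are known. Snord116 encodes small nucleolar RNAs from the region affected in Prader-Willi syndrome, a disorder with overeating.

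The values are CPM, the reads of a gene scaled to the total of its library. Depth, read from the smallest step between low values, was 2.65 to 4.63 M reads (megareads) in fasted and 2.93 to 8.23 M reads in fed libraries, with medians of 3.80 and 5.0 M reads (exact permutation test, 2-sided, p = 0.156). In every batch the fasted libraries were shallower than the fed ones. At these depths 3 reads corresponded to between 0.364 and 1.13 CPM, so levels of a few CPM rest on few reads. Of the 10127 genes in the table, 95 to 396 had no read in a given library. Libraries of the same batch correlated with a median r of 0.917 across genes and those of different batches with 0.885, whereas libraries of the same state (0.888) were no closer than fasted with fed ones (0.893). Batch was therefore a term of the fit. Batch 1 held 1 fasted library, Fast-86. With all libraries 3.1% of genes were higher and 3.53% lower in fasted mice at an unadjusted p under 0.05, and without Fast-86 these shares were 2.4% and 2.58%. Of the 73 genes picked for description that reached this level, 48 still did so without Fast-86 and 25 did not.

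The label was checked against marker genes of the nucleus and of its neighbours. Npvf, the precursor of RFamide-related peptides made by DMH neurons, was at 56.5 to 225 CPM in the DMH libraries and at most at 6.30 CPM in the 30 libraries of the other nuclei. Gpr50, an orphan receptor of the melatonin receptor family, was at 105 to 229 CPM in the DMH, at 18.9 to 106 CPM in the arcuate nucleus (ARC) and at most at 6.61 CPM in the paraventricular (PVN) and ventromedial (VMH) nuclei. Markers of the neighbours were low: Fezf1 of the VMH was at 3.26 to 10.5 CPM in the DMH against 172 to 256 CPM in the VMH, Avp of the PVN at 0.385 to 3.77 CPM against 395 to 1475 CPM, and Crabp1 of the ARC at 0.502 to 8.12 CPM against 129 to 268 CPM. Hcrt and Pmch, which mark orexin and melanin-concentrating hormone (MCH) neurons of the lateral hypothalamic area beside the DMH, were at 46.7 to 268 and at 149 to 631 CPM in the DMH. Whether these reads came from that border or from orexin and MCH cells within the DMH was not tested.

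One gene, Hsph1, changed with fasting in the DMH at an adjusted p under 0.1, of 9751 genes tested (0.0103%), and it fell (limma, Benjamini-Hochberg adjusted p = 0.00321). Hsph1, at chr5:149614287-149636376 on the minus strand of GRCm38, encodes HSP105, a member of the HSP110 family that acts as a nucleotide exchange factor for HSP70 chaperones. In fasted libraries it was at 302 CPM in Fast-86, 506 in Fast-100, 537 in Fast-101, 549 in Fast-305 and 565 in Fast-311. In fed libraries it lay between 749 and 989 CPM, with a median of 790. Every fasted library was below every fed library, as in 18 of the genes tested (0.185%), and Fast-86 was far below the other fasted libraries. Mean levels were 492 ± 108 CPM (SD, n = 5) and 823 ± 86.1 CPM (SD, n = 6), and the log2 fold change was -0.82 ± 0.11 (SE), with a 95% interval of -1.05 to -0.59, a 1.76-fold lower level. The fold change was below 0 in every batch, at -1.39 in batch 1, -0.76 in batch 2 and -0.50 in batch 3. Without Fast-86 it was -0.63 and still passed (limma, adjusted p = 0.0148). The threshold was not passed without the batch term (-0.77, limma, adjusted p = 0.277) or with log2 depth added as a term (-1.10, adjusted p = 0.195), and since fasted libraries were the shallower ones in each batch, the part of depth in this result was not tested further. In tissue that holds many cell types, fewer cells of a type and less RNA per cell cannot be told apart, here and in all results below.

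**Figure D1:**
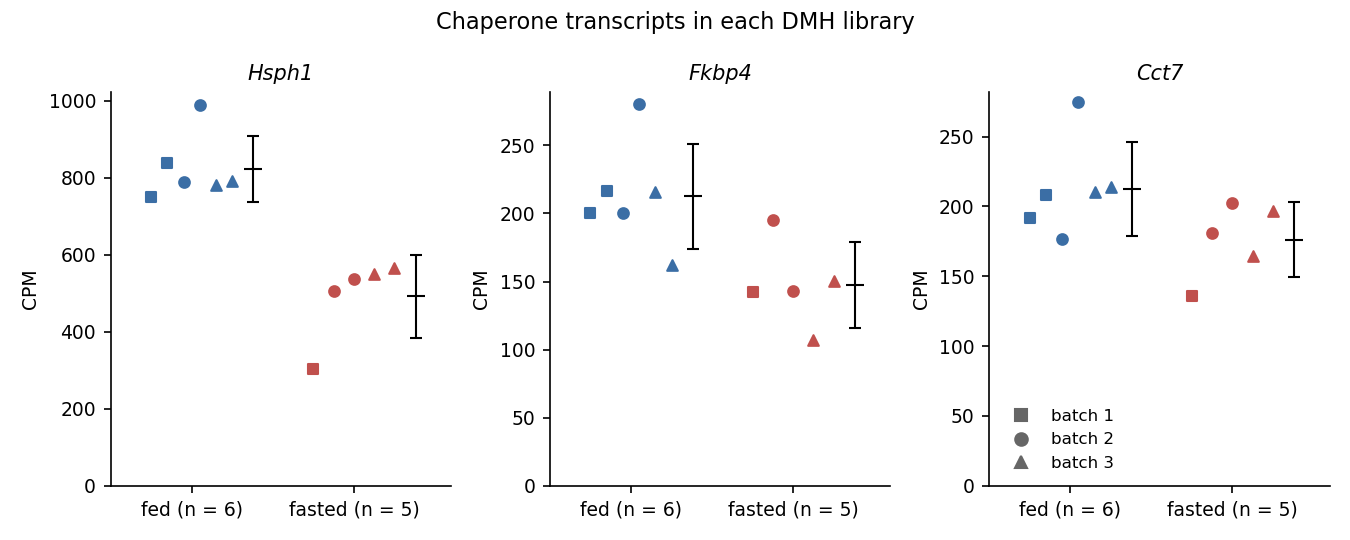
CPM of Hsph1, Fkbp4 and Cct7 in each DMH library, fed (blue, n = 6) and fasted (red, n = 5). Symbols give the batch, and black marks give the mean and SD of each group. The fasted libraries of Hsph1 sit between 302 and 565 CPM, all below the fed ones, whereas the groups overlap for Fkbp4 and Cct7.

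Chaperone genes are switched on together by heat shock factor 1, which binds arrays of inverted repeats of the pentamer nGAAn in their promoters. The promoters of the measured chaperones were searched for a single pair of such units, which is less than a full array. The letters searched were GAANNTTC and TTCNNGAA, each of which reads the same on both strands, and matches of the 2 patterns can overlap one another. Promoter sequences from RefSeq (GRCm38.p6), 250 bases before to 50 after a start site, were there for 22 of the 28 chaperones tested. Of these, 11 held a match (50%), as did 13.9% of the 7013 tested genes with a promoter and 15.1% of all 32851 windows. Shown in 30 bases of context are the matches of Hsph1, of Fkbp4 and Cct6a, which were the other chaperones with a match among those lower at an unadjusted p under 0.05, and of Hspe1. The first match in each stretch is in capitals, each stretch is written 5′ to 3′ on the strand of the gene, and positions are relative to the start site, for Hsph1 the more upstream one.
Hsph1, chr5:149636351-149636380, minus strand, match at -33: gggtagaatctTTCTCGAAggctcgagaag
Hsph1, chr5:149636287-149636316, minus strand, match at +37: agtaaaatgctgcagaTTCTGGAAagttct
Fkbp4, chr6:128438789-128438818, minus strand, match at -151: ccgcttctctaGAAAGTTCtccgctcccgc
Cct6a, chr5:129787369-129787398, plus strand, match at +25: gcgtaagacttTTCGAGAAgaccccgcaga
Hspe1, chr1:55088048-55088077, plus strand, match at -89: gccacggtccgTTCTAGAAccttccggaag

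Hsph1 held a further match that overlaps the second one shown, and Hspe1 held 2 further ones within the stretch shown, at -84 and -79. The 11 chaperones with a match had a median log2 fold change of -0.34, from -0.82 to 0.88, and 8 of them were lower in fasted libraries. The 11 with a promoter but no match had a median of -0.11, from -0.36 to 0.20, and 8 of them were lower as well. These are descriptions of a list that includes Hsph1, and a match is not a measured binding site.

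The other chaperones did not pass the threshold. Of the 28 tested, of 70 listed, 20 had a fold change below 0, the median was -0.13 against 0.01 over all genes, and counting Hsph1, 4 were lower and 2 higher at an unadjusted p under 0.05, against 3.53% and 3.1% of all genes tested. Without Fast-86 the count was 3 lower (Hsph1, Fkbp4 and Dnajc5) and 0 higher, and with log2 depth as a term it was 1, Hsph1. Fkbp4, a co-chaperone of HSP90 that carries the glucocorticoid receptor, was at 142, 196, 143, 107 and 150 CPM in fasted libraries. In fed libraries it lay between 162 and 281 CPM with a median of 208, so that 1 fasted library, Fast-100, reached into the fed range. The fold change was -0.54 ± 0.14 (SE; limma, adjusted p = 0.541) and close to that in each batch, at -0.55, -0.50 and -0.56, but it was -0.24 with log2 depth as a term. Cct7 and Cct6a, subunits of the ring-shaped TRiC chaperonin that folds actin and tubulin, had fold changes of -0.30 ± 0.13 and -0.37 ± 0.16 (SE), and without Fast-86 these were -0.22 and -0.27. Hspe1, the mitochondrial HSP10, had one of -0.34 and Cryab, a small heat shock protein, one of -0.51. Other members were higher in fasted libraries. Hspb6, a small heat shock protein, had a fold change of 0.88 ± 0.37 (SE; 0.78 without Fast-86), and Bag4, a regulator of HSP70, was at 63.4 to 72.4 CPM in fasted and 40.3 to 60.3 CPM in fed libraries, which did not overlap (higher without overlap in 0.215% of all genes). Hspa1a, the classic stress-induced HSP70, was at 0.753 to 5.61 CPM in fasted and 1.04 to 14 CPM in fed libraries, with an interval of the log2 fold change from -1.98 to 0.51. The summed CPM of the list was 2489 to 3076 in fasted and 2980 to 3851 in fed libraries, and its median fold change was 0.02 with log2 depth as a term.

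Below Hsph1, genes were described by whether their fasted and fed libraries overlapped. In 39 genes (0.4% of those tested) they did not, with 21 higher (0.215%) and 18 lower (0.185%) in fasted libraries, and 646 genes (6.62%) had an unadjusted p under 0.05. Apart from Hsph1 none of them passed the threshold, and the genes that follow are ranked by p and are not calls.

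**Figure D2:**
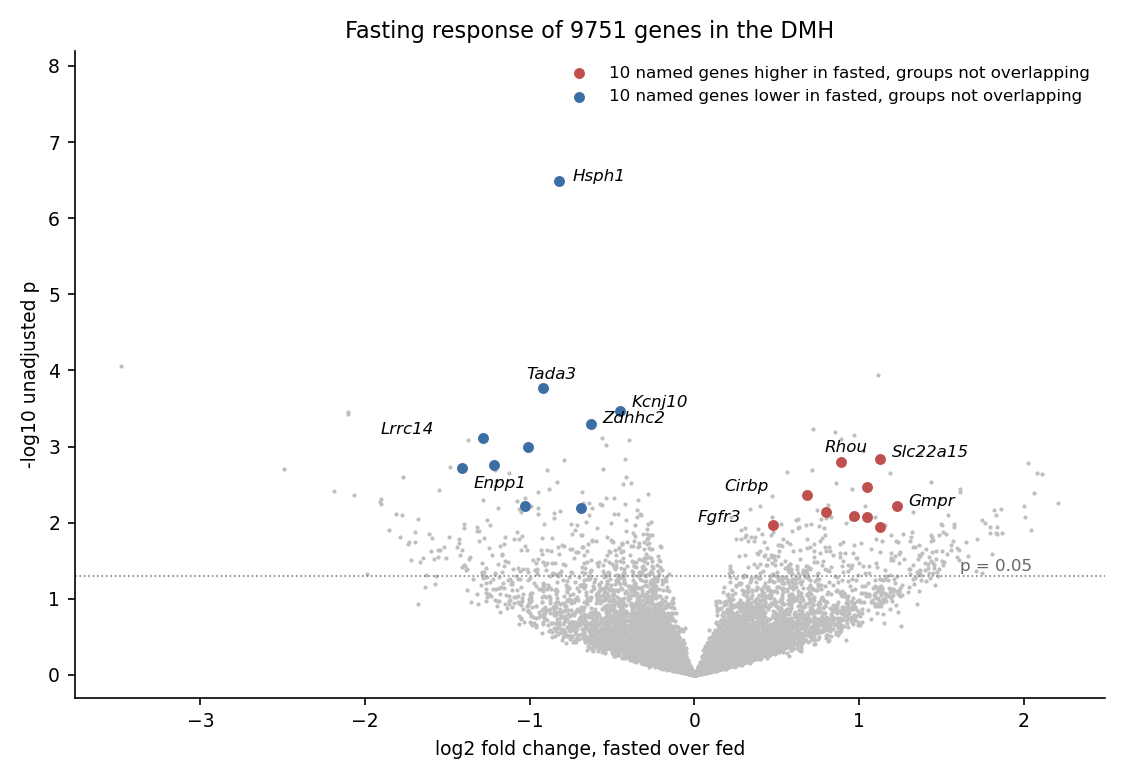
Log2 fold change of each gene tested (x axis) against -log10 of its unadjusted p (y axis), 1 point per gene. Coloured points are the 10 genes per direction with the smallest p among those with a mean of at least 5 CPM and no overlap between groups. Hsph1 stands alone at the top, with a log2 fold change of -0.82, and the dotted line marks an unadjusted p of 0.05.

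Among the 10 genes ranked highest on the lower side were Tada3, Kcnj10 and Zdhhc2. Tada3, a subunit of the histone acetyltransferase complexes SAGA and ATAC, was at 33.2, 32.0, 35.0, 14.8 and 17.7 CPM in fasted libraries and at 36.1 to 67.0 CPM in fed libraries, a fold change of -0.92 ± 0.20 (SE). Kcnj10, the potassium channel Kir4.1 of astrocytes and other glia, was at 205, 269, 285, 312.8 and 299.9 CPM in the same order against 317 to 431 CPM. This is a fold change of -0.45 ± 0.11 (SE; limma, adjusted p = 0.497), and the groups lay apart by a few CPM between the highest fasted library, Fast-305, and the lowest fed one. Zdhhc2, which attaches palmitate to synaptic proteins, was at 50.6 to 77.1 CPM against 84.2 to 113 CPM, a fold change of -0.63 ± 0.15 (SE; -0.38 with log2 depth as a term). Enpp1, an enzyme of extracellular nucleotides that also dampens insulin receptor signalling, was at 5.79 to 12.1 CPM against 12.8 to 39.7 CPM. Lrrc14, Tnrc18, Pum3 (an RNA-binding protein of the nucleolus), 2810006K23Rik and the antisense transcript Gm15577 made up the rest, with fold changes of -1.28, -1.01, -0.69, -1.03 (-0.58 with log2 depth as a term) and -1.41. Reads of an antisense transcript cannot be told from those of its partner where strand was not used in counting, which is not given in the sources used here.

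On the higher side, Slc22a15 led the 10 genes. Slc22a15, a transporter of the organic cation family, was at 35.5, 33.1, 35.8, 31.1 and 24.8 CPM in fasted libraries and at 6.03 to 23.2 CPM in fed libraries, with a median of 15.5 CPM. It had a fold change of 1.13 ± 0.31 (SE; limma, adjusted p = 0.569). Rhou, a small GTPase, was at 34.4 to 66.1 CPM against 16 to 30.4 CPM, a fold change of 0.89 ± 0.25 (SE). Fgfr3, a growth factor receptor of astrocytes, was at 65.3 to 77.5 CPM against 40.9 to 60.7 CPM, a fold change of 0.48 ± 0.17 (SE). Gmpr, which returns guanine nucleotides to inosine monophosphate, was at 12.3 to 21.9 CPM against 2.70 to 12 CPM. The zinc finger genes Zfp869 and Zfp352, the long noncoding RNA Gm26530 and BC048403 had fold changes of 0.80 (0.55 without Fast-86), 0.97, 1.05 and 1.13. Cirbp and Usp2 are described with their groups below. Arhgef10, a guanine nucleotide exchange factor, was picked out after its values were seen, because its unadjusted p was smaller than those of all these genes but Hsph1. It was at 69.1, 48.1, 68.4, 35.9 and 57.2 CPM against 16.2 to 53.7 CPM, with Fed-92 and Fed-111 inside the fasted range, a fold change of 1.12 ± 0.24 (SE; limma, adjusted p = 0.371).

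The question most tied to this nucleus is whether peptides of feeding differed. Of the 33 listed peptides and hormones 11 were tested, 10 of them had a fold change above 0, and 4 were higher and 0 lower at an unadjusted p under 0.05 (36.4% of the list, against 3.1% of all genes). Crh, among these 4, was above 1 CPM in all 5 fasted libraries but had a fed median of 0.823 CPM. It met the filter of 1 CPM in at least 5 libraries through the fasted group, so its place in the count is not evidence of a rise. Without Fast-86 the count was 3 higher, and with log2 depth as a term it was 3 higher and 1, Cck, lower. None passed the threshold over all genes. The median fold change was 0.34, from 0.19 (without Fed-125) to 0.55 (without Fast-86) with 1 library left out, and 4 of the 11 had the same sign in the 3 batches, as had 26.7% of all genes. Agrp, Pomc, Gal and Trh were among the listed genes not analysed here.

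Hcrt, the precursor of the arousal and feeding peptides orexin A and B, was at 268 CPM in Fast-86, 124.6 in Fast-100, 121 in Fast-101, 91.9 in Fast-305 and 134 in Fast-311. In fed libraries it lay between 46.7 and 79.8 CPM, apart from 169 CPM in Fed-111. That fed library was the only one to reach into the fasted range, and the same library had the highest Pmch level, 631 CPM against at most 338 CPM in the others. The fold change of Hcrt was 0.97 ± 0.24 (SE; limma, adjusted p = 0.497), at 1.59, 0.99 and 0.53 in the batches, and 0.76 without Fast-86. Pmch, the precursor of MCH, was at 203 to 338 CPM in fasted and 149 to 631 CPM in fed libraries, with medians of 327 and 196 CPM and a fold change of 0.34 ± 0.23 (SE), which was 0.54 without Fed-111 and 0.19 without Fed-125 or Fed-92. Hcrt and Pmch summed to 315 to 606 CPM in fasted and 203 to 800 CPM in fed libraries. Both mark neurons of the lateral hypothalamic area beside the DMH, and any part that the amount of border tissue in each library has in these values was not tested.

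Nucb2, the precursor of the satiety peptide nesfatin-1, was at 74.0, 75.4, 69.8, 110 and 145 CPM in fasted libraries and at 44.1 to 94.3 CPM in fed libraries. That gave a fold change of 0.49 ± 0.18 (SE; limma, adjusted p = 0.695), higher in fasted libraries in each batch, and 0.16 with log2 depth as a term. Bdnf, a growth factor that limits food intake, was at 9.93 to 16.6 CPM against 1.04 to 21.5 CPM, a narrow range in fasted and a wide one in fed libraries, with a fold change of 1.28 ± 0.55 (SE; 0.81 without Fed-125). Crh, the releasing hormone of the stress axis and also a marker of the PVN, was at low levels, 1.76 to 6.40 CPM against 0 to 2.32 CPM. Npvf, the peptide that marks the nucleus, was at 68.7 to 112 CPM in fasted and 56.5 to 225 CPM in fed libraries, with medians of 101.2 and 67.8 CPM. The fold change was 0.17, with an interval of -0.35 to 0.69. It was 0.87 with log2 depth as a term, outside that interval, and 0.012 (without Fast-101) to 0.36 (without Fed-92) with 1 library left out. Penk and Tac1, precursors of opioid and tachykinin peptides, had fold changes of 0.09 (interval -0.20 to 0.38) and 0.06 (-0.43 to 0.55), and Cck, of the satiety peptide cholecystokinin, one of -0.19 (-0.81 to 0.43), which was -1.19 with log2 depth as a term. Npy was at 1.26 to 6.12 CPM in fasted and at 0.831 to 5.45 CPM in fed libraries, apart from 33.4 CPM in Fed-92, and Avp was at most at 3.77 CPM. The other identity markers of the DMH, Gpr50, Hmx2 and Prlhr, had intervals that included 0, and with log2 depth as a term Gpr50 moved from -0.18 to -0.71 and was then lower at an unadjusted p under 0.05.

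**Figure D3:**
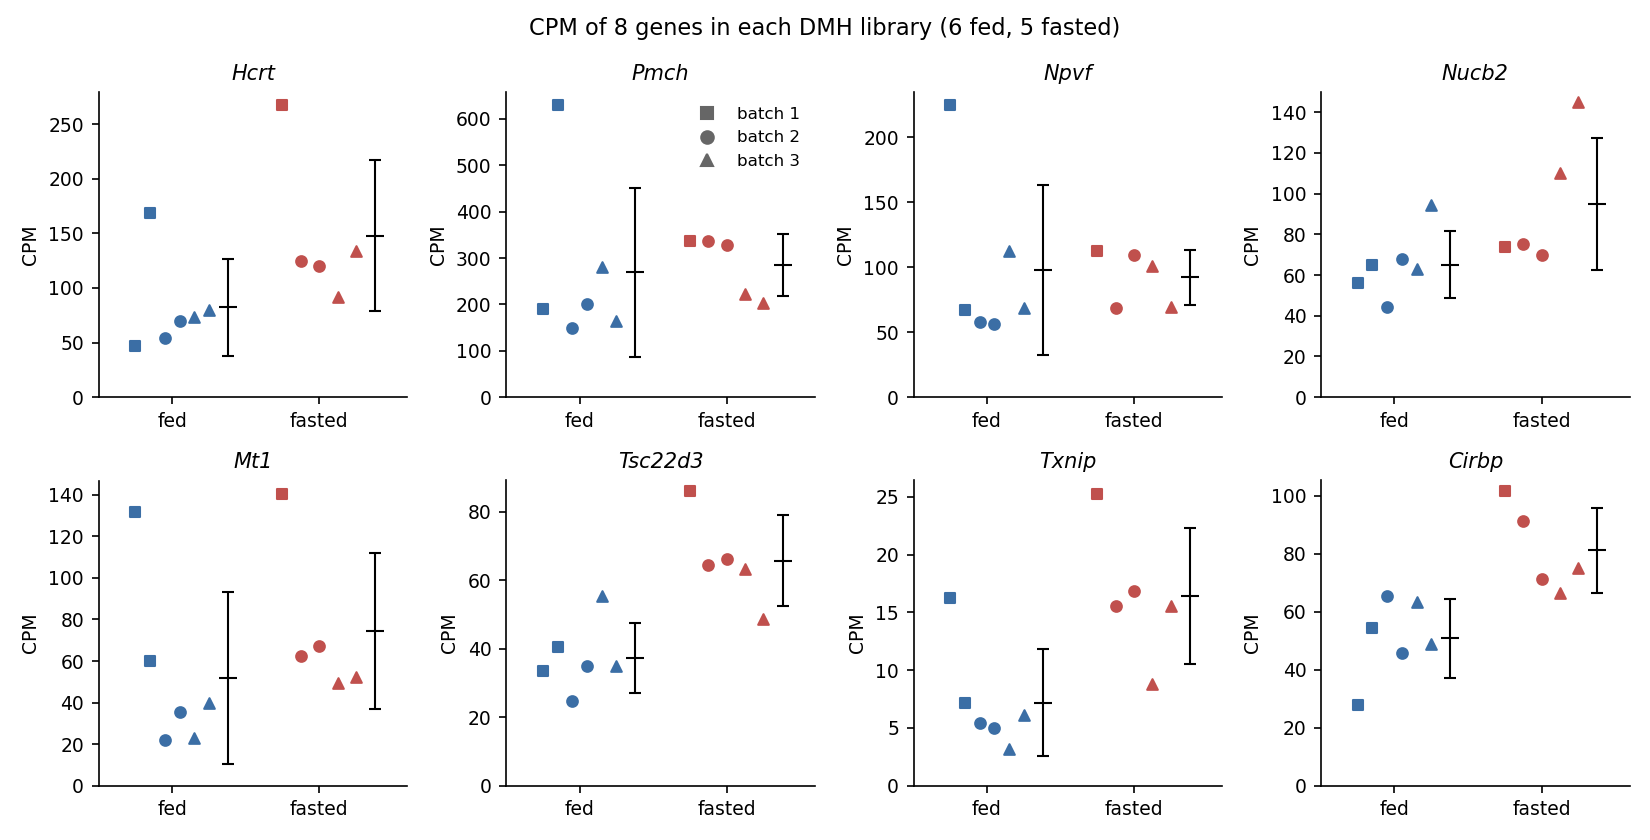
CPM of 8 genes in each DMH library, fed (blue, n = 6) and fasted (red, n = 5), with the batch as symbol and the mean and SD in black. For Cirbp the groups do not overlap, at 66.5 to 102 CPM in fasted and 27.8 to 65.3 CPM in fed libraries, and for the other 7 genes 1 or more fed libraries lie within the fasted range.

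Receptors showed no common direction. Of 21 receptors tested, 8 had a fold change above 0, and 1 was higher and 2 were lower at an unadjusted p under 0.05 (14.3% of the list in either direction, against 6.62% of all genes), with a median of -0.12. Without Fast-86 the count was 2 higher and 0 lower. Over all fits with 1 library left out, the count in either direction ran from 1 to 3, being 1 (Npy5r) without Fast-101. The median ran from -0.19 (without Fed-313) to 0.07 (without Fast-101). Npy5r, a receptor through which neuropeptide Y drives feeding, was at 0.755 to 2.90 CPM in fasted and 1.35 to 16.7 CPM in fed libraries, a fold change of -1.49 ± 0.56 (SE; -1.01 without Fast-86). Npy1r, the receptor encoded next to it on chromosome 8, had a fold change of 0.37 (interval -0.25 to 0.98). Mc4r, the melanocortin receptor, was also at low levels, 0.377 to 8.03 CPM against 0 to 2.79 CPM. Htr2c, the serotonin receptor of appetite, was at 44.5 to 74.7 CPM against 60.0 to 98.6 CPM, a fold change of -0.37 ± 0.18 (SE), and -0.24 without Fast-86. Lepr, the leptin receptor, had a fold change of 0.07 with an interval of -0.68 to 0.81, and its batches went different ways, at -1.33, -0.36 and 1.42.

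Downstream of leptin and insulin, 25 genes were tested, of which 1 was higher and 2 were lower at an unadjusted p under 0.05 (12% of the list, against 6.62% of all genes), with a median of -0.10. Without Fast-86 the count was 0 higher and 2 lower. Sesn3, a sestrin that restrains mTORC1, was at 76.3, 91.2, 81.9, 82.9 and 71.7 CPM in fasted libraries and at 76.3 to 144 CPM in fed libraries, and Fed-92 lay within the fasted range. This is a fold change of -0.47 ± 0.16 (SE; limma, adjusted p = 0.695). Irs4, an insulin receptor substrate of the hypothalamus, was at 230 to 307 CPM against 244 to 368 CPM, a fold change of -0.28 ± 0.11 (SE) with -0.23, -0.29 and -0.30 in the batches. Sh2b1, an adaptor of the leptin receptor, was at 63.0 CPM in Fast-86 and at 6.48 to 22.6 CPM in the other fasted libraries, and its fold change of 0.81 was 0.47 without Fast-86.

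Genes that respond to glucocorticoids had the highest list median among those plotted by list. Of the 22 listed, 8 were tested. Among these, 7 had a fold change above 0, 4 were higher and 0 lower at an unadjusted p under 0.05 (50% of those tested, against 3.1% of all genes), and the median was 0.79. Without Fast-86 the count was 3 higher. It was also 3 higher with log2 depth as a term, where Mt1 was not among them and the median was 0.86. Tsc22d3 (GILZ), a direct target of the glucocorticoid receptor, was at 86.1, 64.5, 66.1, 63.3 and 48.8 CPM in fasted libraries, and at 24.7 to 55.3 CPM in fed libraries with a median of 34.9 CPM. Of the fed libraries 1, Fed-308, lay above the lowest fasted one. The fold change was 0.86 ± 0.21 (SE; limma, adjusted p = 0.497), and 0.74 without Fast-86. Mt1 and Mt2, metallothioneins that bind zinc and are induced by glucocorticoids and by metals, had fold changes of 0.89 ± 0.23 and 0.72 ± 0.18 (SE), each with an adjusted p of 0.497 (limma). Both were highest in Fast-86 and next in Fed-92, which are of batch 1: Mt1 was at 140 CPM and 132 CPM there, and at 22 to 67.1 CPM in the other libraries. Within the batches Mt1 was higher in fasted libraries by 0.66, 1.19 and 0.74 on the log2 scale. Sult1a1, a sulfotransferase, had a fold change of 1.46 ± 0.65 (SE; 1.10 without Fast-86, 0.94 without Fed-111). The remaining members were close to 0 or low, with Klf9 at 0.10 (interval -0.37 to 0.56), Errfi1 at -0.02 (-0.47 to 0.43), Zbtb16 at 0.07 (-0.67 to 0.81) and Rasd1 at 1.21 (-0.13 to 2.54). The full palindromic glucocorticoid element was in the promoter of 0 of the 6 members with a promoter, and of 0% of all genes tested, so these windows say nothing of it.

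Cirbp and Rbm3 encode RNA-binding proteins whose transcripts accumulate when cells are cooled. Cirbp was at 102, 91.2, 71.3, 66.5 and 74.9 CPM in fasted libraries and at 27.8 to 65.3 CPM in fed libraries, with no overlap and a fold change of 0.68 ± 0.21 (SE; limma, adjusted p = 0.695). Without Fast-86 it was 0.45. Rbm3 was at 30.6 to 61.9 CPM against 26.6 to 44.7 CPM, a fold change of 0.45 with an interval of -0.04 to 0.94.

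Of 13 clock genes, 2 were higher and 1 was lower at an unadjusted p under 0.05 (23.1% of the list, against 6.62% of all genes), and the median was 0.02. Without Fast-86 only Per2 remained in the count. Usp2, a rhythmic deubiquitinase that acts on clock proteins, was at 26.8, 16.1, 12.1, 11.5 and 25.3 CPM in fasted libraries and at 5.51 to 11.2 CPM in fed libraries, which did not overlap. It had a fold change of 1.05 ± 0.36 (SE; limma, adjusted p = 0.695), and 0.77 without Fast-86. Per2, a negative limb of the clock that glucocorticoids also induce, was at 34.2 to 54.0 CPM against 17.5 to 36.8 CPM, a fold change of 0.68 ± 0.24 (SE) and above 0 in each batch. Bhlhe40, a repressor in the same loop, had a fold change of -0.53 that was -0.09 without Fast-86. The hour of collection of each mouse is not in the labels, and its part in these values was not tested. The E-box CACGTG, which reads the same on both strands, was in the promoter of 2 of the 11 clock genes that had one (18.2%), and of 10.9% of all genes tested.

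Genes of cholesterol synthesis and uptake, which sterol-regulated factors control, were listed with their regulators, and more were below 0 than above. Of the 16 tested, 10 had a fold change below 0 and 6 above, where 51.4% of all genes were above 0. At an unadjusted p under 0.05, 5 were lower and 0 higher, against 3.53% lower among all genes, and the median was -0.34. The count of lower members was 0 with log2 depth as a term, 2 without Fast-86 (Insig1 and Nsdhl) and, over all fits with 1 library left out, from 0 (without Fast-101) to 5. The median was -0.35 with log2 depth as a term. With 1 library left out it ran from -0.38 (without Fast-311) to -0.21 (without Fast-101). Summed over the list, the CPM was 612 to 697 in fasted and 708 to 886 in fed libraries, and the sums did not overlap, which is a description of the list. Insig1, which holds back the sterol sensor, was at 49.5, 60.4, 64.5, 79.6 and 86.6 CPM in fasted libraries and at 83.3 to 113 CPM in fed libraries other than Fed-111, which was at 43.3 CPM. Hmgcs1, the synthase that feeds the mevalonate pathway, was at 112 to 177 CPM against 134 to 250 CPM, a fold change of -0.32 ± 0.14 (SE), and of -0.14 with log2 depth as a term. Scap, the escort of the sterol-regulated factor SREBP, was at 36.6 to 49.1 CPM against 45.9 to 89.9 CPM, a fold change of -0.43 ± 0.20 (SE). Nsdhl, a later enzyme of the pathway, and Nr1h2, a receptor for oxysterols, had fold changes of -0.45 and -0.81. Those not lower included Dhcr7, Fdps and Lss, at 0.23, 0.31 and 0.10. The sterol element TCACNCCAC, searched on both strands, was found in the promoter of 1 of the 13 members with a promoter, Hmgcs1, and of 1.25% of all genes tested. It is shown because this is the one member with the element.
Hmgcs1, chr13:119690204-119690233, plus strand, match at -137: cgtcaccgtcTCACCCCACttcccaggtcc

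Among 19 genes of fuel use, 1 was higher and 3 were lower at an unadjusted p under 0.05 (21.1% of the list, against 6.62% of all genes). Without Fast-86 the count was 1 higher, Txnip, and 0 lower. With log2 depth as a term it was 1 higher and 4 lower, without Txnip, whose fold change was then 1.38. In the fit with all libraries Txnip had the smallest p of the list. Txnip, which limits glucose uptake and binds thioredoxin, was at 25.3, 15.6, 16.8, 8.79 and 15.5 CPM in fasted libraries. In fed libraries it lay between 3.16 and 7.16 CPM, apart from 16.2 CPM in Fed-92. That gave a fold change of 1.37 ± 0.37 (SE; limma, adjusted p = 0.569), about equal in the batches at 1.19, 1.55 and 1.31, and 1.43 without Fast-86. Scd1 and Elovl5, which desaturate and elongate fatty acids, had fold changes of -0.36 ± 0.14 and -0.41 ± 0.18 (SE), and Ppargc1a, a coactivator of mitochondrial genes, one of -0.33 ± 0.15 (SE). Without Fast-86 that of Scd1 was -0.20 and that of Ppargc1a -0.21, and without Fed-127 that of Elovl5 was -0.27.

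Several groups that a fast might touch had no member at an unadjusted p under 0.05, a level that 6.62% of all genes reached. These were 10 immediate early genes of neuronal activity (median 0.10, with Egr1 at 115 to 218 CPM in fasted and 81.5 to 219 CPM in fed libraries), 9 genes of ER and amino acid stress (median -0.14), 17 genes of autophagy (0.05), and 12 imprinted genes (-0.07), among which Ndn, of the same Prader-Willi region, had a fold change of 0.03. With 1 library left out or log2 depth as a term these lists held at most 1 such member, apart from the imprinted genes, with 2 without Fast-86 (Rian and Dlk1) and 2 without Fed-308 (Peg10 and Cdkn1c). Of 5 genes of thyroid hormone transport and action 1, Nrgn, was higher at that level (20% of the list, against 3.1% of all genes). Nrgn, which encodes no transporter or receptor of the hormone, had a fold change of 1.04 ± 0.34 (SE). With log2 depth as a term the count was 0 and the fold change 0.86. Among 7 transmitter genes, Th, the first enzyme of dopamine synthesis, had a fold change of 0.72 ± 0.20 (SE; 0.67 without Fast-86). That fold change was 0.48 with log2 depth as a term, where Th was no longer higher at an unadjusted p under 0.05. The GABA transporter Slc6a11 had one of -0.22 ± 0.09 (SE; -0.46 with log2 depth as a term). Slc17a6 and Slc32a1, vesicular transporters of glutamate and GABA, had intervals of -0.45 to 0.04 and -0.17 to 0.44.

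The ribosomal and respiratory chain families had small median fold changes with most members above 0, and splicing proteins had more members below 0. Of 60 ribosomal protein genes 52 had a fold change above 0, against 51.4% of all genes, with a median of 0.16 and 4 of them (Rpl41, Rps27, Rps28 and Rpl27) higher at an unadjusted p under 0.05, which is 6.67% of the family against 3.1% of all genes. With 1 library left out this count ran from 1 (without Fed-125) to 9 (without Fed-127), and it was 0 with log2 depth as a term, where the median was 0.17. Reads of such genes can be shared with pseudogenes. Of 41 respiratory chain genes 34 were above 0, with a median of 0.08 and a range from -0.49 to 1.23. Among them 2 (Atp5f1 and Cox6a2) were higher at an unadjusted p under 0.05 (4.88% of the family, against 3.1% of all genes), and 0 without Fast-86. Of 18 hnRNP and SR splicing proteins 5 were above 0 and 13 below, with a median of -0.04 that turned to 0.13 with log2 depth as a term. Of these 18, 2 (Hnrnpm and Hnrnpc) were lower and 1 (Srsf2) higher at an unadjusted p under 0.05 (16.7% of the list, against 6.62% of all genes). Hnrnpc was at 81.5 to 160 CPM in fasted and 102 to 236 CPM in fed libraries, a fold change of -0.56 ± 0.14 (SE; limma, adjusted p = 0.497). Hnrnpm had a fold change of -0.42 and Srsf2 one of 0.28. With log2 depth as a term the count was 0 lower and 1 higher, Hnrnpa1. The fold changes of Hnrnpc, Hnrnpm and Srsf2 were then -0.36, -0.49 and 0.39.

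**Figure D4:**
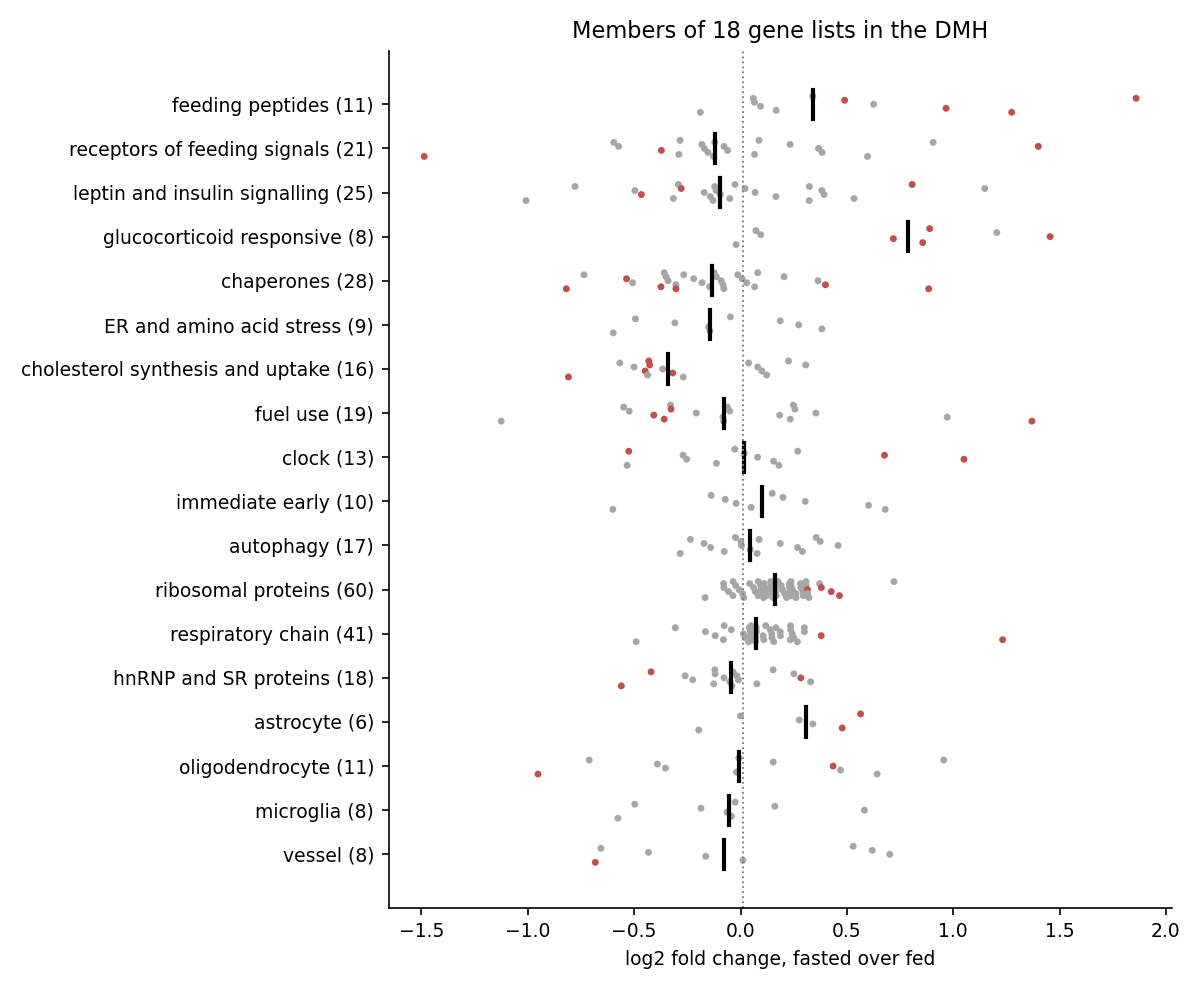
Log2 fold change in the DMH (x axis) of each tested member of 18 gene lists, with the number of members in parentheses. Red points have an unadjusted p under 0.05, black bars are list medians and the dotted line is the median of all genes, 0.01. Glucocorticoid-responsive genes have the highest median shown, 0.79, and genes of cholesterol synthesis and uptake with their regulators the lowest, -0.34.

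Markers of cell types were counted beside these lists. Summed over 3 neuronal markers, fasted libraries were at 1131 to 1274 CPM and fed ones at 1036 to 1305 CPM. For 6 astrocyte markers the sums were 364 to 555 and 301 to 438 CPM. Of these markers 4 had a fold change above 0 and 2 below, and Agt and Fgfr3 were higher at an unadjusted p under 0.05 (33.3% of the list, against 3.1% of all genes), whereas with log2 depth as a term the count was 0 and their fold changes were 0.54 and 0.52. Agt, angiotensinogen, was at 229 CPM in Fast-86, at 95.2 to 117 CPM in the other fasted libraries and at 61.2 to 106 CPM in fed libraries, a fold change of 0.56 that was 0.36 without Fast-86. For 11 oligodendrocyte markers the sums were 638 to 1138 and 523 to 1720 CPM, and members went both ways, Mobp of myelin at 0.44 ± 0.19 (SE; 0.25 without Fed-125) and the lineage factor Olig2 at -0.95 ± 0.29 (SE), and the median of these markers moved from -0.0081 to 0.47 with log2 depth as a term. For 8 microglial markers they were 108 to 160 and 100 to 217 CPM. For 8 vessel markers they were 125.3 to 177 and 122 to 235 CPM, and 4 markers had a fold change above 0 and 4 below. Of them 1, the VEGF receptor Flt1, was lower at an unadjusted p under 0.05 (12.5% of the list, against 3.53% of all genes), at -0.68 ± 0.21 (SE). With log2 depth as a term the count was instead 1 higher, Abcb1a, and the median of the vessel markers moved from -0.08 to 1.02. Globin and other blood markers summed to at most 36.8 CPM, and the ependymal marker Foxj1 was at most at 5.66 CPM. The part of these cell types in the results above was not tested.

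Whether the response of the DMH differed from that of the other nuclei was tested as a contrast of its fold change with the mean of those in ARC, PVN and VMH. By limma, 0 of 10120 genes (0%) passed, and at an unadjusted p under 0.05 there were 538 (5.32%). The nuclei come from the same mice. For Hsph1, fold changes in the fit over all nuclei were -0.80 in the DMH, -0.73 in the ARC, -0.65 in the PVN and -0.63 in the VMH, and the difference of the DMH from the others was -0.14 with an interval of -0.36 to 0.09. The intervals of the difference also included 0 for Mt1 (0.07, interval -0.41 to 0.56), Cirbp (-0.11, -0.63 to 0.41) and Tsc22d3 (0.59, -0.02 to 1.2). Hcrt was at a median of 0.506 CPM in the other nuclei, under 1 CPM, so its change there cannot be compared with that in the DMH.

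The genes with the smallest p in that contrast were Ttc39b, Lrrc14 and Olfml2a on the lower side and Pop5, Lpar2 and Cdv3 on the higher side, and the first 5 of these had an adjusted p of 0.51 (limma). Ttc39b, which lowers the level of the oxysterol receptor LXR, was at 98.1, 97.9, 107, 116 and 130 CPM in fasted DMH libraries and at 112 to 200 CPM in fed libraries. The fold change was -0.43 in the DMH and 0.23, 0.12 and 0.35 in the ARC, PVN and VMH, a difference of -0.66 ± 0.15 (SE). Lrrc14 was at 3.95 to 13.6 CPM in fasted and 14.9 to 24.4 CPM in fed DMH libraries, and its fold change of -1.33 there stood beside -0.15, 0.42 and -0.09. Pop5, a protein of RNase P, had a fold change of 0.56 in the DMH and of -1.10, -0.49 and -0.14 in the ARC, PVN and VMH. Olfml2a and Lpar2, an extracellular matrix protein and a lysophosphatidic acid receptor, were at most at 14.8 and 14.3 CPM in the DMH libraries, with differences of -3.05 ± 0.77 and 2.84 ± 0.73 (SE). Cdv3 differed by 0.58 ± 0.17 (SE; adjusted p = 0.908). Zbtb16, a transcription factor induced by glucocorticoids, had a fold change of -0.02 in the DMH in this fit against 1.87, 1.51 and 2.04 in the ARC, PVN and VMH, a difference of -1.82 ± 0.57 (SE; limma, adjusted p = 0.908). It was at 4.77 to 21.1 CPM in fasted and 3.90 to 31.0 CPM in fed DMH libraries, which overlapped throughout.

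**Figure D5:**
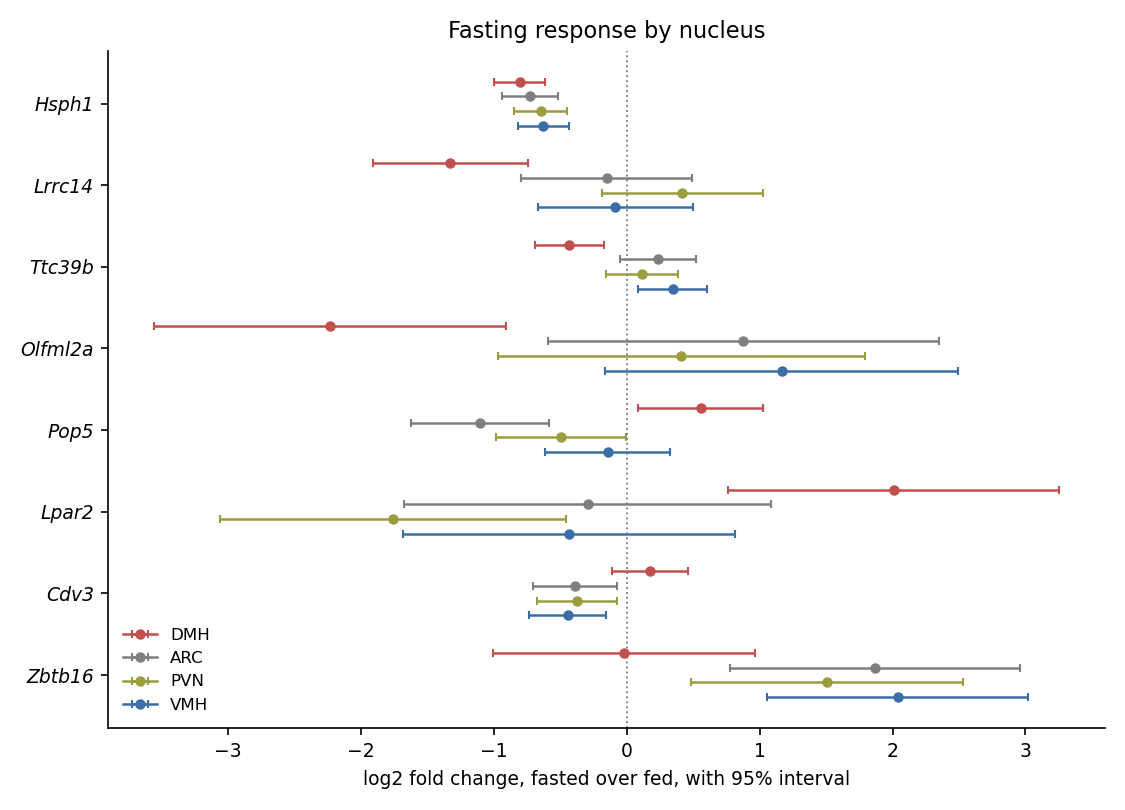
Log2 fold change between fasted and fed mice (x axis) with its 95% interval for 8 genes in the DMH (red), ARC (grey), PVN (olive) and VMH (blue), from 1 fit over the 41 libraries. For Hsph1 the 4 intervals overlap below 0, whereas for Zbtb16 the DMH estimate of -0.02 lies below those of the other nuclei, 1.51 to 2.04.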

How the data were processed

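The deposited values are CPM per Ensembl gene, made by the authors from single-end reads of amplified RNA (Ovation RNA-Seq System V2) and, per the submitters' processing notes, with CASAVA 1.7, TopHat2 2.0.11, Cufflinks 2.2.1, edgeR, limma and GRCm38. The authors left out outlier libraries, which can lower the spread between replicates. How reads were assigned to overlapping genes is not given in the sources used here. The table held 10127 genes, 9891 of them named through GENCODE M21. It held no row for a range of identifiers with 6725 annotated genes, which were not analysed here. A further 2 columns fitted the labels of none of the samples and were left out, so that 41 of the 43 labelled samples were used. Depth was read from the step between low values, of which 97.2% to 98.1% in the DMH libraries were whole multiples (within 0.02 of a read). Values above 0 but under 0.01 CPM occurred in 101 genes, and counts were therefore not tested.

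Tests used log2(CPM + 0.5), which understates fold changes of low genes, and genes at 1 CPM or more in at least 5 DMH libraries (lmFit and eBayes with trend, limma 3.58.1, R 4.3.3). Batch, with 3 levels, was a covariate. P values are 2-sided and adjusted by Benjamini-Hochberg over all genes tested, with a threshold of 0.1. The contrast with the other nuclei used 8 group means and batch over 41 libraries. Named genes were Hsph1, the 10 genes per direction with the smallest p whose groups did not overlap, given a mean CPM of 5 or more, list members, and the 3 genes per direction with the smallest p in the contrast between nuclei. Those named outside this rule were chosen after their values were seen. List members were described by counts and medians without a test. The members and the lists were chosen with earlier results of these data known. The fits were tested on simulated data, where the share of false calls was above the threshold set, in the DMH fit and in the contrast. Promoters came from RefSeq (GRCm38.p6). Intervals are 95%. Other pseudocounts, filters, scaling, covariates, weights and left-out libraries were tried as alternatives.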

Additional observations from a re-analysis of the deposited data

Results flagged for a closer look

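Within the fasted or the fed group of a named gene, a library counted as apart from the rest when its gap to the next library, as a share of the group's range, exceeded Dixon's 95% critical value. Of 190 groups tested, 23 had such a library. A rate of 1 in 20, or 9.50, would need independent groups and genes not picked from these same values. Neither holds here, so the count is a description and no excess can be read from it.

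Fast-86, the only fasted DMH library of batch 1, was the library apart in most of these groups. It was lowest for Hsph1, at 302 CPM with the other fasted libraries from 506 CPM, and for Errfi1, at 27.6 CPM with the others from 49.8 CPM. It was highest for Hcrt at 268 CPM, Agt at 229 CPM, Mt2 at 211 CPM, Mt1 at 140 CPM, Th at 108 CPM, Rps28 at 81.9 CPM, Sh2b1 at 63.0 CPM, Hspb6 at 38.9 CPM and Gmpr at 21.9 CPM. In Gm20390 it was at 31.9 CPM where the other fasted libraries were at most at 0.170 CPM, and in ENSMUSG00000090425, which has no symbol in the annotation used, at 25.0 CPM with the others at most at 6.63 CPM. Batch 1 and Fast-86 cannot be told apart within the fasted group.

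Fed libraries stood apart in the other groups. Fed-111 was highest for Pmch at 631 CPM, Hcrt at 169 CPM, Tnrc18 at 61.4 CPM and Prlhr at 11.2 CPM. Fed-92 was highest for Npvf at 225 CPM, Mt1 at 132 CPM, Npy at 33.4 CPM and Txnip at 16.2 CPM. Fed-127 was highest for Hsph1 at 989 CPM, and Fed-125 for Errfi1 at 68.2 CPM. The causes were not tested.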

How the results depend on the processing

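Hsph1 passed in all 11 fits with 1 library left out (log2 fold change -0.87 to -0.63, limma adjusted p 0.00339 to 0.0317) and under the alternatives other than no batch term (-0.77, adjusted p = 0.277) and log2 depth as a term (-1.10, adjusted p = 0.195). The lowest adjusted p over the alternatives was 5.12e-07 and the highest 0.277. The count of genes past the threshold was 0 under both of these, 2 with library weights or with batch 1 left out, and 1 to 2 with 1 library left out, being 2 without Fast-86 and without Fed-111. The second gene was Gm20390 (-3.48 with all libraries, -4.03 with library weights) or, with batch 1 left out, ENSMUSG00000090425 (-3.73). Gm20390 overlaps Nme1 on the same strand, and both genes had values far under 1 read in some libraries. The cause was not tested. The contrast with the other nuclei gave 0 genes in all its alternatives, with 394 to 648 at an unadjusted p under 0.05. Fasted and fed mice were different animals, so fasting itself was not paired. In the contrast between nuclei, the replicate block for mouse gave 0 genes with 536 at an unadjusted p under 0.05, with a correlation of -0.0033 within mice.

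The intervals of the genes that changed sign included 0 in the fit with all libraries. With log2 depth as a term the fold change was -0.46 for Lepr, -0.15 for Penk, -0.18 for Avp, -0.12 for Hmx2 and 0.96 for Hspa1a, which was at low levels. Without the batch term it was -0.24 for Npy, -0.10 for Zbtb16, -0.027 for Lepr and 0.031 for Errfi1. In the fit over all nuclei it was -0.091 for Npy, -0.019 for Zbtb16, 0.042 for Errfi1 and -9.4e-05 for Lepr. With library weights it was -0.045 for Klf9 and 0.12 for Errfi1. With batch 1 left out it was -0.012 for Cdv3, 0.10 for Cck, -0.14 for Klf9 and 0.16 for Errfi1, and at a pseudocount of 2 it was -0.042 for Npy. With 1 library left out the sign changed for Npy (-0.32 to 0.55), Cck (-0.43 to 0.10), Tac1 (-0.057 to 0.30), Prlhr (-0.30 to 0.071), Hmx2 (-0.053 to 0.32), Zbtb16 (-0.21 to 0.28), Klf9 (-0.14 to 0.21), Errfi1 (-0.18 to 0.16), Lepr (-0.25 to 0.53), Egr1 (-0.034 to 0.30), Cdv3 (-0.012 to 0.30) and Slc32a1 (-0.0016 to 0.185).

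Of the 73 genes picked for description that had an unadjusted p under 0.05, those that were no longer so without Fast-86 were Cirbp, Zfp869, Usp2, Pop5, Lpar2, Bdnf, Npy5r, Htr2c, Sh2b1, Sult1a1, Hspb6, Cct7, Cct6a, Bag4, Hmgcs1, Nr1h2, Scap, Scd1, Elovl5, Ppargc1a, Bhlhe40, Atp5f1, Cox6a2, Rps27 and Srsf2. The counts of list members without each library and with depth as a term were chosen after seeing the data. With log2 depth as a term all 73 kept their sign, the fold change was over 1.5 times smaller in 9 and over 1.5 times larger in 15. The smaller ones were Zdhhc2, 2810006K23Rik, Nucb2, Fkbp4, Hmgcs1, Bag4 (0.25), Rps28 (0.26), Hnrnpc (-0.36) and ENSMUSG00000090425 (-0.19). The larger ones were Gmpr (1.97), Kcnj10 (-0.75), Crh (3.44), Bdnf (3.01), Npy5r (-2.57), Sesn3 (-0.72), Tsc22d3 (1.41), Sult1a1 (3.01), Scd1 (-0.76), Elovl5 (-0.76), Ppargc1a (-0.78), Per2 (1.06), Bhlhe40 (-1.12), Slc6a11 (-0.46) and Mobp (0.85).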
